A study of Homo sapiens with 2 samples.

Results

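The cancer-testis antigen families were measured here in a prostate cancer line selected for resistance to enzalutamide and in its parent. Members were the probe sets whose symbol in the platform annotation begins with MAGEA, MAGEB, MAGEC, GAGE, XAGE, PAGE, CTAG, SPANX or SSX plus a digit, or is PRAME. Of 54675 probe sets 69 met this rule, 44 with 1 symbol and 25 with several symbols of the same family, and they name 66 of the 21357 genes that the annotation names. The letters also caught 10 probe sets of other gene families, 6 of SSX2IP and 4 of the CTAGE family, which are described apart. The remaining 59 probe sets of 10 families, of which 23 name several genes, are the members counted below. A further 2 rows pair MAGEA5P with an unnamed locus and were not counted.

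C4-2B-MDVR is an enzalutamide-resistant human prostate cancer line that was obtained from C4-2B by prolonged culture with enzalutamide, an antagonist of the androgen receptor. C4-2B is the enzalutamide-sensitive parent. Both lines were grown in the same RPMI-1640 medium with fetal bovine serum, received no treatment before RNA was taken, and were hybridized to 1 Affymetrix array each, so no p-value, SD or SE can be given, and precision is limited by the count of arrays. The free-text description of the resistant sample names a docetaxel-resistant line, TaxR, while its title, source and cell line labels name C4-2B-MDVR. The cell line labels were followed, and every direction below is that of the array labelled C4-2B-MDVR relative to the array labelled C4-2B.

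Cancer-testis antigens are proteins whose genes are normally active in male germ cells and silent in most adult tissues. The silent state is held in large part by DNA methylation of their promoters, and many tumours lose it. Most of the families lie in repeated copies on the X chromosome, and peptides of several of the proteins, among them NY-ESO-1 and the MAGE-A proteins, are targets of T cells. Because copies within a family are nearly alike, a probe set may read several genes at once, and the identifier ending _x_at marks probe sets with probes that match other sequences too.

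The detection floor was the median intensity of an array, 43.5 for C4-2B-MDVR and 41.9 for C4-2B, and a probe set was above it if the brighter of its values reached the median of the array concerned. Of 8 prostate luminal markers 6 had a value, all above the floor. KRT18 had an intensity of 4038 in C4-2B-MDVR and 4337 in C4-2B, and KLK3, the gene for prostate-specific antigen, had 172 in C4-2B-MDVR and 8379 in C4-2B on the brightest of its 3 probe sets, which differed by −6.24 to −0.35 on the log2 scale. The 6 germ cell markers, which included DDX4, DAZL and SYCP3, were all under the floor, from 6.30 to 14.8 in C4-2B-MDVR and from 6.16 to 16.1 in C4-2B, with sums of 66.0 and 68.8. Of 5 fibroblast markers 2 were above the floor and of 5 blood and endothelial markers 3 were, with 0 of these differing 2-fold. In RNA of whole cultures, a change in the number of cells that express a gene cannot be told apart from a change in RNA per cell.

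The families did not differ alike. SSX and CTAG probe sets were mostly several-fold higher in C4-2B-MDVR, those of GAGE and XAGE1 were about 2-fold higher, PRAME was moderately higher, and 0 of the MAGEA probe sets differed 2-fold, with MAGEA1 lower and MAGEA10 higher by under 2-fold and 3 of 11 under the floor. MAGEB and MAGEC were under the floor on both arrays. Of the 59 probe sets 37 were above the floor. Of these 37, 16 (43.2%) were 2-fold or more higher and 0 were 2-fold or more lower. Over all 28630 probe sets above the floor, 2.56% were 2-fold or more higher and 4.01% 2-fold or more lower. The median difference of the 37 was 0.89 on the log2 scale, against 0.03 over all probe sets above the floor. All 16 were above the floor on both arrays, so no fold is a bound set by the floor. Passing the floor does not by itself mark signal, since the blood and endothelial marker VWF read 80.4 in C4-2B. In C4-2B 1 CTAG2 probe set (51.6) and 1 SSX4 probe set (77.3) lay below VWF. SSX1 (96.3) and SSX3 (87.2 and 94.9) lay just above it. Where the C4-2B value is this low, the fold may be a lower bound. The 16 lay in 4 of the 10 families, with 9 in SSX, 5 in CTAG, 1 in GAGE and 1 in XAGE. Without SSX and CTAG 2 of 21 (9.52%) were 2-fold or more higher, and their median was 0.29.

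**Figure D1:**
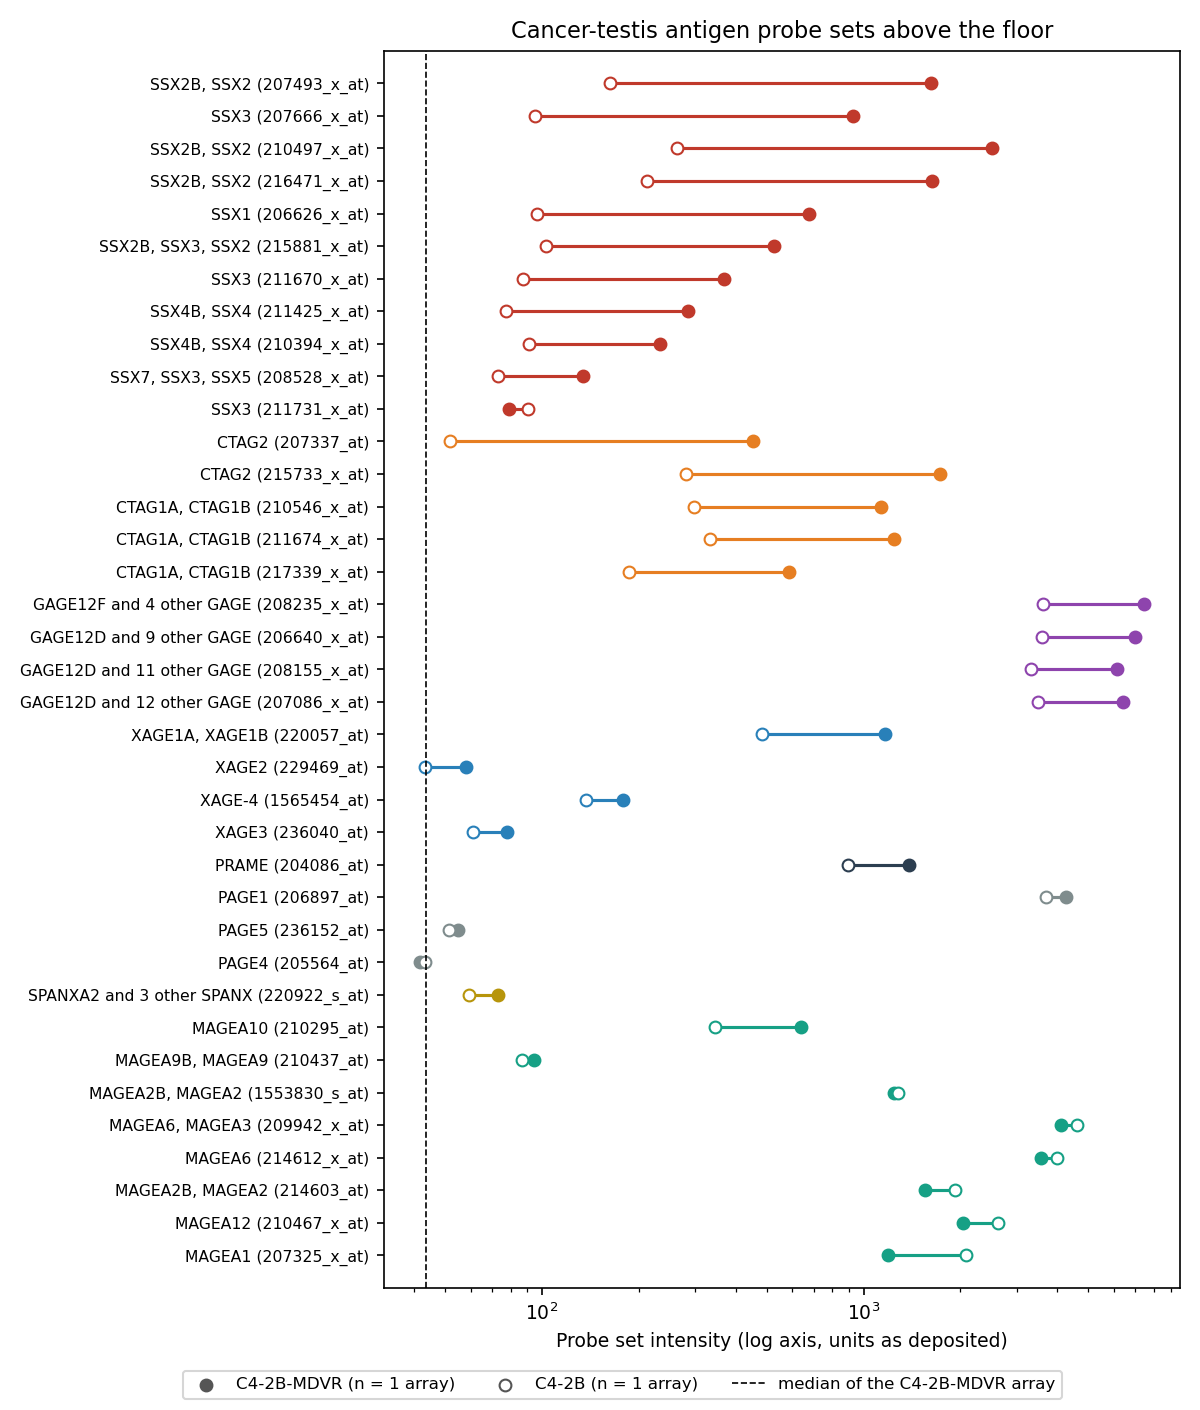
Intensity of the 37 cancer-testis antigen probe sets above the floor (log axis, units as deposited), with C4-2B-MDVR as filled and C4-2B as open circles, 1 array each, coloured by family. The SSX and CTAG lines are long with the filled circle on the right, except 1 SSX3 probe set, while the PAGE and most MAGEA lines are short, and the dashed line is the median of the C4-2B-MDVR array.

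SSX genes encode nuclear proteins that associate with repressive chromatin and are known as the fusion partners of SS18 in synovial sarcoma. The 3 probe sets of SSX2 and its copy SSX2B had intensities of 2514, 1635 and 1621 in C4-2B-MDVR, against 262, 212 and 163 in C4-2B. These are differences of 9.59-fold, 7.73-fold and 9.95-fold, and on all 3 probe sets the C4-2B-MDVR array was higher. SSX1 had 675 in C4-2B-MDVR and 96.3 in C4-2B, 7.01-fold higher (log2 difference 2.81). The 2 probe sets of SSX4 and its copy SSX4B read 285 and 233 in C4-2B-MDVR, against 77.3 and 91.4 in C4-2B, 3.68-fold and 2.55-fold higher. A probe set shared by SSX2B, SSX3 and SSX2 was 5.12-fold higher, with 527 in C4-2B-MDVR and 103 in C4-2B. The probe set that names SSX7, SSX3 and SSX5 had 134 in C4-2B-MDVR and 73.0 in C4-2B (log2 difference 0.88), under the 2-fold threshold.

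The SSX3 probe sets did not give 1 answer. Of its 3 probe sets 2 were higher, at 928 in C4-2B-MDVR against 94.9 in C4-2B (9.77-fold) and at 367 in C4-2B-MDVR against 87.2 in C4-2B (4.21-fold). The remaining one had 79.3 in C4-2B-MDVR and 90.5 in C4-2B, a log2 difference of −0.19. All 11 SSX probe sets above the floor are _x_at probe sets. The 3 SSX probe sets of other kinds, for SSX1, SSX2B and SSX4, were under the floor on both arrays, between 9.63 and 27.4 in C4-2B-MDVR and between 8.15 and 18.3 in C4-2B. The SSX readings were therefore higher as a family, and which of its genes carry the signal cannot be told apart from these probe sets.

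The stretches upstream of SSX1, SSX2 and SSX4 are shown because the readings that name these genes were higher together. Each is the 250 bases before the gene's start on its own strand, from RefSeq (GRCh38.p14), with CpG dinucleotides, the sites of promoter methylation, in capitals. SSX1 lies on the plus strand (chrX:48255142-48255391), SSX2 on the minus strand (chrX:52707228-52707477) and SSX4 on the plus strand (chrX:48383289-48383538).
SSX1: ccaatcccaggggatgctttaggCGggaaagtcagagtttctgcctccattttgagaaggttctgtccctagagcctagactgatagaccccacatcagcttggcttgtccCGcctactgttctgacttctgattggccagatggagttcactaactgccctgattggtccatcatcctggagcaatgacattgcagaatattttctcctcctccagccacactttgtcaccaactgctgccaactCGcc
SSX2: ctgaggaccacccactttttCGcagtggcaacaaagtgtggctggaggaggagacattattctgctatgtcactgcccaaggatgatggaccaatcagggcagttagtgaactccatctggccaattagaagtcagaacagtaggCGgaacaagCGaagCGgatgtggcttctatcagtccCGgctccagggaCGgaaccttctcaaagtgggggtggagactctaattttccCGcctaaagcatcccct
SSX4: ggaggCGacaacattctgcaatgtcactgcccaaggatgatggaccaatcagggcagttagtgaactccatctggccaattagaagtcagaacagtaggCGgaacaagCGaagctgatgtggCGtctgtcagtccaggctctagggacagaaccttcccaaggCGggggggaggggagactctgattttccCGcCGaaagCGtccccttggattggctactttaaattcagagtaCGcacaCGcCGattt

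These windows hold 3 CpG in SSX1, 7 in SSX2 and 11 in SSX4, against a median of 11 over 27305 promoters of the same table, with quartiles at 3 and 23. The windows were compared by local alignment on both strands. SSX2 and SSX4 share an unbroken run of 94 bases and are 89.9% identical over 208 alignment columns. SSX1 matches both in inverted orientation, with a shared run of 47 bases in each case, at 88.7% identity over 230 columns with SSX2 and 87.5% over 216 columns with SSX4. On the same strand the longest run that SSX1 shares with SSX2 is 9 bases. The stretch covered depends on the annotated start, and SSX4 and its copy SSX4B share 177 bases without a difference.

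The CTAG genes encode NY-ESO-1 (CTAG1A and CTAG1B, identical copies) and its relative LAGE-1 (CTAG2), antigens recognised by T cells in many cancers. The 3 CTAG1A and CTAG1B probe sets had 1241, 1134 and 585 in C4-2B-MDVR, against 333, 297 and 186 in C4-2B, or 3.72-fold, 3.82-fold and 3.14-fold higher. CTAG2 had 1734 in C4-2B-MDVR and 281 in C4-2B on its _x_at probe set, 6.17-fold higher. Its other probe set, which does not carry the _x_at mark, read 452 in C4-2B-MDVR and 51.6 in C4-2B, 8.75-fold higher. All 5 CTAG probe sets were thus higher on the C4-2B-MDVR array, by log2 differences from 1.65 to 3.13. CTAG2 was the 1 SSX or CTAG gene with a 2-fold difference on a probe set without the _x_at mark.

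**Figure D2:**
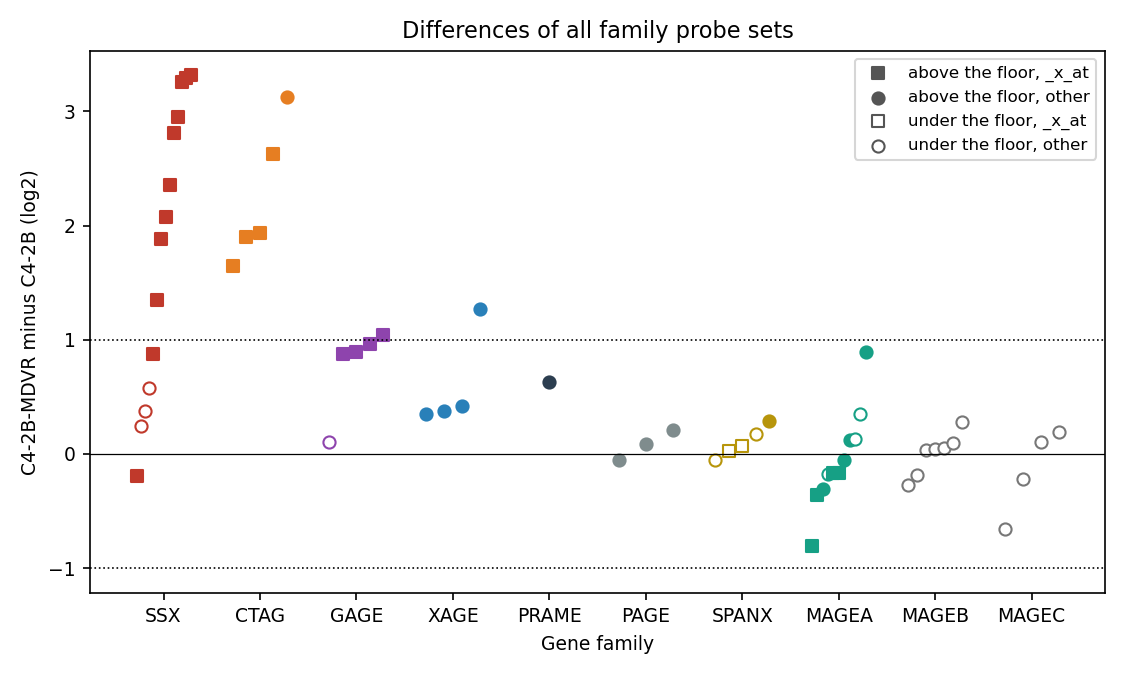
Log2 difference, C4-2B-MDVR minus C4-2B, of all 59 family probe sets by family. Squares are _x_at probe sets, circles other probe sets, open symbols probe sets under the floor, and dotted lines mark 2-fold. SSX and CTAG reach above 3, the 4 GAGE probe sets above the floor sit near 1, and MAGEB and MAGEC hold open symbols only.

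GAGE genes form a long tandem array of nearly identical copies on the X chromosome. The 4 GAGE probe sets above the floor each name between 5 and 13 copies and gave close readings, from 6145 to 7418 in C4-2B-MDVR and from 3318 to 3611 in C4-2B. Their log2 differences ran from 0.87 to 1.04, so 1 of 4 passed the 2-fold threshold (2.05-fold) and 3 lay just under it (1.83-fold, 1.85-fold and 1.94-fold). With each array centred on its median the probe set past the threshold came to 0.99. GAGE1 alone, on its own probe set, was under the floor with 32.1 in C4-2B-MDVR and 29.8 in C4-2B.

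XAGE genes are relatives of GAGE. XAGE1A and XAGE1B, read by 1 probe set without the _x_at mark, had 1165 in C4-2B-MDVR and 484 in C4-2B, 2.41-fold higher. XAGE2 had 58.2 in C4-2B-MDVR and 43.4 in C4-2B, and XAGE3 had 77.9 in C4-2B-MDVR and 61.2 in C4-2B, both near the floor. The pseudogene XAGE-4 read 178 in C4-2B-MDVR and 137 in C4-2B. These 3 were within 2-fold, with log2 differences from 0.35 to 0.42.

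Upstream windows of XAGE1A (plus strand, chrX:52495627-52495876) and of GAGE12F, a copy that all 4 GAGE probe sets name (plus strand, chrX:49560592-49560841), are shown because the readings of both were about 2-fold higher. CpG dinucleotides are again in capitals.
XAGE1A: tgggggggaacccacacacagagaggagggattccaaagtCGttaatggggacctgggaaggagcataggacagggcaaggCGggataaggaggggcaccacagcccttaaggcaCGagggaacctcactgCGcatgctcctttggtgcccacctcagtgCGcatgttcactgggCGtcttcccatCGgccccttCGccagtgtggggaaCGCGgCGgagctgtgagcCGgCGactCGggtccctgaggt
GAGE12F: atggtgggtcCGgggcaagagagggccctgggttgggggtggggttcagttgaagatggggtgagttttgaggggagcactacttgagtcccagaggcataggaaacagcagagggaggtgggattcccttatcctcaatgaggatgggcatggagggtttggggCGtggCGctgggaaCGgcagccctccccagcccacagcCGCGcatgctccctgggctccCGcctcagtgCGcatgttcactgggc

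XAGE1A holds 14 CpG and GAGE12F 8. The 2 windows share the run cctcagtgcgcatgttcactgggc, 24 bases long, and XAGE1A and XAGE1B are identical over the window.

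MAGE-A proteins bind RING-type ubiquitin ligases, and MAGEA3 and MAGEA6 act with TRIM28. Of 11 MAGEA probe sets 8 were above the floor, 0 differed 2-fold in either direction, and 6 of the 8 were below 0, with a median of −0.16 (−0.22 to −0.14 under the scalings tried). The probe set of MAGEA6 and MAGEA3 had 4110 in C4-2B-MDVR and 4599 in C4-2B, and that of MAGEA6 alone 3548 in C4-2B-MDVR and 3981 in C4-2B. MAGEA12 had 2040 in C4-2B-MDVR and 2608 in C4-2B. MAGEA2 and MAGEA2B had 1556 and 1239 in C4-2B-MDVR, against 1922 and 1283 in C4-2B. The outer members were MAGEA1, with 1188 in C4-2B-MDVR and 2083 in C4-2B (log2 difference −0.81), and MAGEA10, with 638 in C4-2B-MDVR and 344 in C4-2B (0.89). MAGEA9 and MAGEA9B read 94.4 in C4-2B-MDVR and 86.5 in C4-2B. MAGEA11, known as a coactivator of the androgen receptor, was under the floor with 8.21 in C4-2B-MDVR and 7.51 in C4-2B, as were MAGEA4 (23.8 in C4-2B-MDVR, 27.0 in C4-2B) and MAGEA8 (12.5 in C4-2B-MDVR, 9.76 in C4-2B).

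The windows upstream of MAGEA6 (minus strand, chrX:152769690-152769939) and MAGEA12 (plus strand, chrX:152733507-152733756) show MAGEA genes with signal far above the floor in both lines, to set beside the SSX windows above.
MAGEA6: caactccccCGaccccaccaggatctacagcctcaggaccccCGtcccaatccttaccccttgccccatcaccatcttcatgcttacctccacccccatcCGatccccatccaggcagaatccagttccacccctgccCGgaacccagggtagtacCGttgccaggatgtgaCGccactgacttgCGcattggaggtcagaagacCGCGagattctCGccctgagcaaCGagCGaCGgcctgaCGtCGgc
MAGEA12: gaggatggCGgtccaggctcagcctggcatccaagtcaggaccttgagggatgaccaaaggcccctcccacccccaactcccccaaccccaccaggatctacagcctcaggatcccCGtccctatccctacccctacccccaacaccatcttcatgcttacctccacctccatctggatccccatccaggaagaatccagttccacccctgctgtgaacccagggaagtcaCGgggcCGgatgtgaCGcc

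MAGEA6 holds 15 CpG and is identical to MAGEA3 over the window, while MAGEA12 holds 5. MAGEA6 and MAGEA12 share a run of 27 bases and are 88.7% identical over 177 columns of a local alignment, with the windows offset from each other. Of 4 short motifs searched on both strands of these windows, TCCCGC, a core found in E2F sites, occurred in 11 of the 14 different windows of SSX, GAGE and XAGE genes and in 0 of the 5 different MAGEA windows, against 23.5% of all 27305 promoters. It occurred in 12 of all 26 different windows, the other one being that of PAGE4, whose reading differed by −0.05. XAGE2, which was within 2-fold, holds it, while SSX4B, SSX7 and XAGE3 do not. In the SSX4 window it lies outside the 177 bases shared with the SSX4B window. Presence or absence of a motif thus depends on the annotated start. The GAGE windows are near-copies and count several times in the 14, and some SSX windows are also alike (SSX5 and SSX2B 89.1% identical). These families were grouped with their differences known, and a link between motif and reading was not tested. CCGGAA, the core of many ETS sites, occurred in PRAME and in the shared window of MAGEA3 and MAGEA6, against 14.8% of all promoters. CACGTG occurred in the windows of PAGE1, PAGE4, PAGE5 and XAGE3 (6.49% of all promoters), and TATAAA in 0 of 37 gene windows (11.1% of all promoters). TCCCGC and CCGGAA each contain a CpG, as does CACGTG, and a match is a match of letters only. The table had a window for 37 of the 46 genes named by probe sets above the floor. The CTAG genes, SSX3, MAGEA1 and MAGEA10 were among those without one.

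PRAME, which lies on chromosome 22 and encodes a repressor of retinoic acid receptor signalling and substrate receptor of a CUL2 ubiquitin ligase, had 1389 in C4-2B-MDVR and 895 in C4-2B on its 1 probe set. The difference of 1.55-fold (log2 0.63) was under the 2-fold threshold. Its upstream window (minus strand, chr22:22559266-22559515) is shown as that of the 1 member off the X chromosome and holds 9 CpG.
PRAME: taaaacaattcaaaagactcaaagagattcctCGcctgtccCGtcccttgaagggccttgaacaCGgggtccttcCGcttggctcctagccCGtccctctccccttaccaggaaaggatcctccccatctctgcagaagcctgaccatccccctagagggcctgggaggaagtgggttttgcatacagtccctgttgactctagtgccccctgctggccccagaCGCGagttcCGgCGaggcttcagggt

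PAGE and SPANX differed little. PAGE1 had 4271 in C4-2B-MDVR and 3690 in C4-2B (log2 0.21). PAGE4, a disordered protein known from prostate, was at the floor with 41.8 in C4-2B-MDVR and 43.3 in C4-2B, and PAGE5 had 54.8 in C4-2B-MDVR and 51.5 in C4-2B. SPANX genes encode proteins of the sperm nucleus. Of 5 SPANX probe sets 1 was above the floor, with 72.8 in C4-2B-MDVR and 59.4 in C4-2B. The 7 MAGEB probe sets read from 6.23 to 17.7 in C4-2B-MDVR and from 5.84 to 21.4 in C4-2B. The 4 MAGEC probe sets read from 11.8 to 24.9 in C4-2B-MDVR and from 12.8 to 21.8 in C4-2B.

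**Figure D3:**
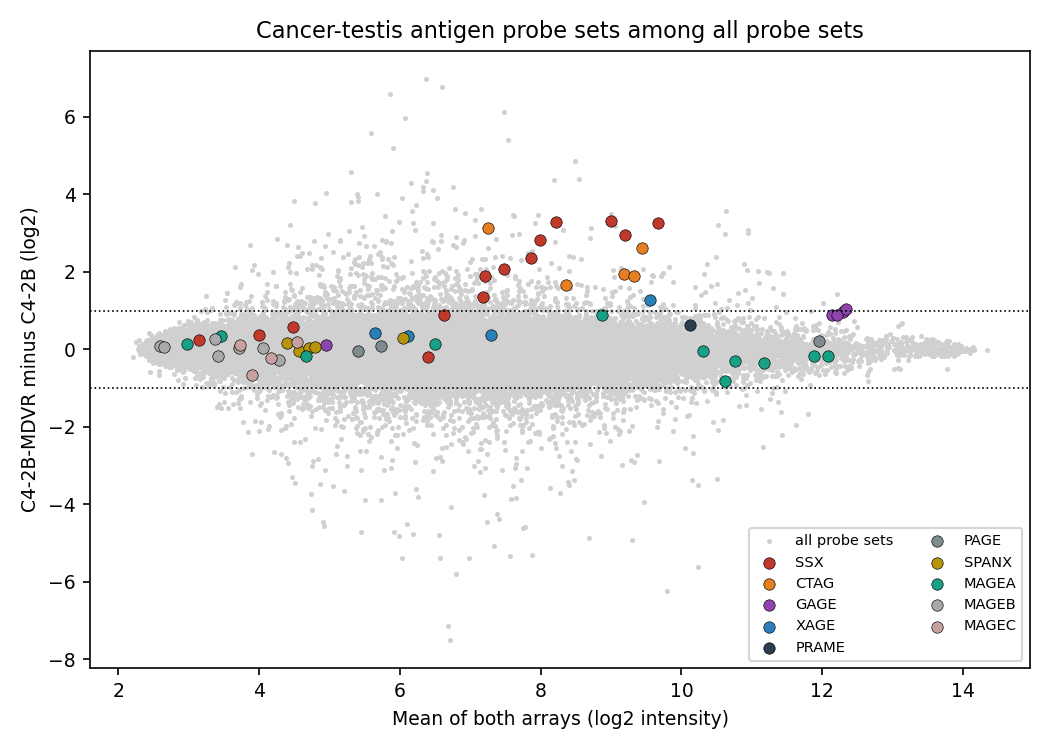
Log2 difference, C4-2B-MDVR minus C4-2B, against the mean log2 intensity of both arrays for all 54675 probe sets (grey) and the 59 family probe sets (coloured by family), with dotted lines at 2-fold. CTAG and 9 of the 14 SSX probe sets lie above the grey band at middle levels, and 4 of the 5 GAGE at the upper right near 1. The other SSX probe sets lie under the upper dotted line, 3 of them under the floor, as is GAGE1. MAGEB, MAGEC and most SPANX lie at the left near 0.

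Probe sets that share sequence carried most of the count. Of the 23 _x_at members above the floor 14 (60.9%) were 2-fold or more higher, against 2.22% of all _x_at probe sets above the floor, and 0 were lower, against 2.53%. Of the 14 other members above the floor 2 (14.3%) were higher, CTAG2 and XAGE1, against 2.6% of all such probe sets, and 0 were lower, against 4.18%. Of the 20 members that name several genes 11 (55%) were higher, against 2.72% of all such probe sets, and 0 were lower, against 3.29%. Counting each set of symbols once, by the median of its probe sets, a count chosen after the data were seen, 9 of 28 were 2-fold or more higher. No share over the whole array was counted in this way. By genes that a probe set names alone, 3 of 14 (21.4%) were 2-fold or more higher, SSX1, SSX3 and CTAG2, and 0 were lower. Of all 13437 genes with such a probe set above the floor 3.17% were higher and 3.5% lower. All 3 were read by _x_at probe sets, so the SSX1 and SSX3 readings may include other SSX genes. Without _x_at probe sets CTAG2 alone was higher. At a threshold of 1.5-fold 22 of the 37 probe sets were higher and 1, that of MAGEA1, was lower, against 7.2% and 10.7% of all probe sets. By genes 5 were higher and 1 lower at 1.5-fold, against 8.26% and 9.32% of all genes. At 3-fold 13 of the 37 were higher and 0 lower, against 1.12% and 1.3% of all probe sets, and 3 genes were higher and 0 lower, against 1.45% and 1.2% of all genes. The part of cross-hybridization in the SSX readings was not tested.

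All members but PRAME lie on the X chromosome. The other X-linked genes above the floor numbered 395, of which 33 (8.35%) were higher and 15 (3.80%) lower by 2-fold or more, and their median difference was 0.10. Elsewhere in the genome 13027 genes were above the floor, 2.99% of them higher and 3.49% lower by this threshold, and their median was 0.04. The nearest 5 other protein-coding genes above the floor on each side of a family's locus were read next. Around SSX1, SSX3, SSX4 and SSX5 0 of 10 neighbours differed 2-fold (range −0.53 to 0.67), and around CTAG1A, CTAG1B and CTAG2 0 of 10 did (−0.17 to 0.64). Around SSX2 and SSX7, which lie next to XAGE1, 2 of 10 were higher, NUDT11 at 1.71 and TSPYL2 at 1.23, and the range was −0.59 to 1.71. Around the MAGEA cluster, with 5 more genes between its members, 1 of 15 was higher, PASD1 at 1.88. Around the GAGE genes 1 of 10 was higher, again NUDT11, and the range was −0.59 to 1.71. Most neighbours of the SSX and CTAG genes were within 2-fold, NUDT11 and TSPYL2 excepted, as were most of the 395 other X-linked genes. Copy number was not measured.

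**Figure D4:**
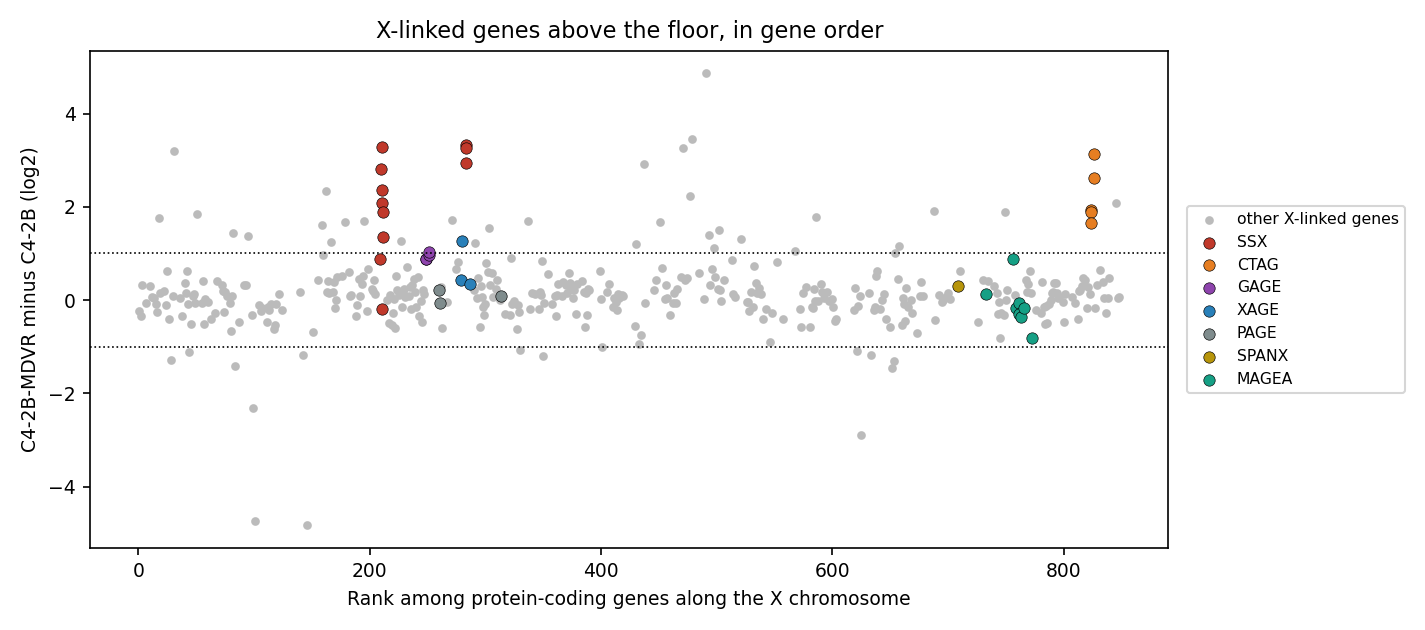
Log2 difference, C4-2B-MDVR minus C4-2B, of X-linked genes above the floor by rank among protein-coding genes along the chromosome, with other genes in grey, family probe sets in colour (a probe set with several symbols at its first gene) and dotted lines at 2-fold. SSX forms a pair of columns and CTAG another, while most grey points around them lie within the dotted lines.

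Other genes tied to the germline or to these proteins were read from lists, each gene by its brightest probe set with 1 symbol, against a background over all genes of 3.17% higher and 3.5% lower by 2-fold or more. Of 65 other germline and testis genes 55 had a probe set of their own and 18 were above the floor, with a median of 0.11. Of the 18, 3 were 2-fold or more higher and 0 lower. NXF2, also listed, has no probe set of its own, and the 3 that it shares with NXF2B were lower, at −1.13 to −1.32. BRDT, a testis bromodomain protein that reads acetylated histones, had 193 in C4-2B-MDVR and 37.1, under the floor, in C4-2B, so it was at least 4.60-fold higher against the C4-2B floor. SAGE1, an X-linked cancer-testis antigen, had 160 in C4-2B-MDVR and 42.8 in C4-2B, 3.74-fold higher. PASD1, another, had 174 in C4-2B-MDVR and 47.4 in C4-2B, 3.68-fold higher. The C4-2B values of SAGE1 and PASD1 lay near the floor of 41.9 and below that of VWF (80.4). Their folds may therefore be lower bounds as well. ZNF165, a testis zinc finger gene, had 85.7 in C4-2B-MDVR and 169 in C4-2B (−0.98).

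The MAGE genes that are expressed in most tissues gave 0 of 6 beyond 2-fold, with a median of 0.03. MAGED1 had 2895 in C4-2B-MDVR and 1634 in C4-2B (0.83), MAGED2 had 613 in C4-2B-MDVR and 410 in C4-2B (0.58), and NDN, which encodes necdin, had 515 in C4-2B-MDVR and 784 in C4-2B (−0.61). Known partners of MAGE, SSX and PRAME proteins had a median of −0.12 over 15 genes, with 0 beyond 2-fold on the brightest probe set. Other probe sets of PRKAA1, a catalytic subunit of AMP-activated kinase, and of SSX2IP went as low as −1.63 and −1.02. TRIM28 had 2161 in C4-2B-MDVR and 2733 in C4-2B (−0.34). RARA, the retinoic acid receptor alpha, had 142 in C4-2B-MDVR and 101 in C4-2B (0.49), and 4 of its probe sets, all above the floor, gave 0.17 to 0.87. ELOB, a subunit of elongin, had 4096 in C4-2B-MDVR and 2966 in C4-2B (0.47), and its other probe set was at −0.12. RAB3IP, an SSX2-binding protein of vesicle transport, had 162 in C4-2B-MDVR and 219 in C4-2B (−0.43).

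Genes of DNA methylation and germline gene silencing gave 0 of 29 beyond 2-fold on the brightest probe set, with a median of −0.09 and 10 above 0. The Polycomb subunit gene EED was at −0.23 on that probe set and at −1.48 on its other one. EHMT1, a histone methyltransferase gene, was at −0.49 on its brightest probe set and reached 0.90 on another of its 3. DNMT1, the maintenance methyltransferase, had 1194 in C4-2B-MDVR and 1800 in C4-2B (−0.59), and UHRF1, which recruits it, 794 in C4-2B-MDVR and 1174 in C4-2B (−0.56). The de novo methyltransferase DNMT3B had 314 in C4-2B-MDVR and 191 in C4-2B (0.72). MBD2, which binds methylated DNA, had 904 in C4-2B-MDVR and 1447 in C4-2B (−0.68), and EZH2, the histone H3 lysine methyltransferase of Polycomb, 429 in C4-2B-MDVR and 667 in C4-2B (−0.63). Methylation itself was not measured.

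Among genes that present such antigens, 12 were above the floor, their median was 0.55, and 1 of 12 was 2-fold or more higher, against the 3.17% of all genes. That gene was PSMB8, an immunoproteasome subunit, with 94.7 in C4-2B-MDVR and 26.7, under the floor, in C4-2B, at least 2.26-fold higher against the floor. PSMB9, another such subunit, had 51.1 in C4-2B-MDVR and 25.98, under the floor, in C4-2B. PSMB10, a further such subunit and above the floor on both arrays, went the other way, with 222 in C4-2B-MDVR and 306 in C4-2B (−0.46). Of the 12 genes 9 were above 0. HLA-B had 1448 in C4-2B-MDVR and 874 in C4-2B (0.73), and TAP1, a subunit of the peptide transporter, 256 in C4-2B-MDVR and 135 in C4-2B (0.92).

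**Figure D5:**
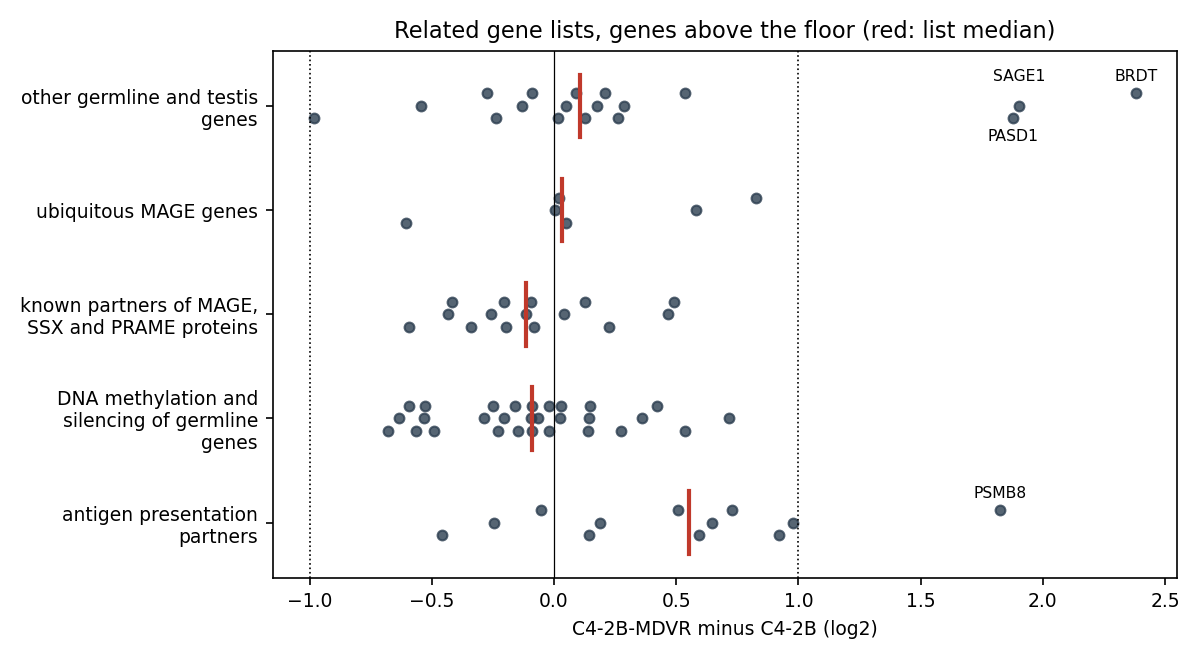
Log2 difference, C4-2B-MDVR minus C4-2B, of genes above the floor in 5 related lists, 1 point per gene, with the list median in red and dotted lines at 2-fold. BRDT, SAGE1, PASD1 and PSMB8 lie to the right of the 2-fold line, and 0 genes, each read by its brightest probe set, lie beyond it on the left.

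The probe sets that matched only by letters behaved otherwise. SSX2IP, a centrosome and junction protein named for its binding to SSX2, had 6 probe sets above the floor. All were lower in C4-2B-MDVR, from −1.02 to −0.26, and 2 of 6 were 2-fold or more lower, against 4.01% of all probe sets. The 6 read the same gene. The probe set with the highest mean had 557 in C4-2B-MDVR and 841 in C4-2B (−0.59), within 2-fold. The CTAGE probe sets, of a family that arose from a gene of protein export from the endoplasmic reticulum, were above the floor in 2 of 4 cases, at 0.19 and 0.25. With these 10 probe sets counted in, 16 of 45 were 2-fold or more higher and 2 lower.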

How the data were processed

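Total RNA of C4-2B-MDVR and C4-2B cells, 1 sample each, was read on Affymetrix arrays after Trizol extraction, Ambion WT amplification and biotin labelling, per the labels. The deposited table holds intensity, whose range of 4.31 to 20839.7 is that of a linear scale. How the authors corrected background, normalized and summarized probes is not given in the sources used here. The table held 54675 probe sets and 0 columns of other samples.

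The deposited values were taken to log2 without further scaling; differences are C4-2B-MDVR minus C4-2B on that scale. Gene names came from the platform's 2016 annotation (41097 with 1 symbol, 1801 with several, 11777 unnamed here). Entrez identifiers of 41043 single-symbol probe sets matched RefSeq genes of GRCh38.p14, and 0 symbols changed. RefSeq served for names, gene order and upstream windows. The floor was each array's median, applied to the brighter array, and differences of at least 1 (log2) either way were counted. For counts by gene, the probe set with the highest mean stood for the gene, and probe sets with several symbols named none. With 1 array per line no test is possible.

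Named probe sets were those past the threshold, all others of the same genes, the highest of each family and PRAME. In each list up to 4 genes that differed most in size were named. TRIM28, UHRF1, PRKAA1, EED, EHMT1, PSMB10, NXF2 and further members were named after their values were seen. Members, lists and motifs were chosen with earlier results of these data known. Alternatives were other scalings (median centring, quantile, loess with a span of 0.3), other floors and thresholds, and other choices of probe sets. Steps were tested on simulated data. Python 3.11.15, numpy 2.4.6, pandas 2.3.3, statsmodels 0.14.6, matplotlib 3.10.9 and biopython 1.88 were used.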

Additional observations from a re-analysis of the deposited data

How the results depend on the processing

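No paired analysis was possible because each cell line has 1 array, and for the same reason no replicate could be left out. The 16 member probe sets 2-fold or more higher kept their direction under median centring, quantile normalization and loess. All values stayed at or above 2-fold except the GAGE probe set, at 0.99 with median centring. Another floor leaves a difference as it is. Raising values to the floor could not change these either, because all 16 lay above it on both arrays. The count of members higher was 15 with median centring, 16 with quantile normalization, loess, every other floor and values raised to the floor, 22 at 1.5-fold and 13 at 3-fold. It was 5 without probe sets naming several genes, 2 without _x_at probe sets and 9 with each set of symbols counted once. The member median, 0.89 as reported, was 0.38 with a floor at the 25th percentile, 1.27 at the 75th, 0.28 with no floor, 0.38 without probe sets naming several genes, 0.32 without _x_at probe sets, 0.42 with SSX2IP and CTAGE counted in and 0.75 with each set of symbols once. These follow from which probe sets enter. Member genes higher were 3 as reported, 5 at 1.5-fold and 1 without _x_at probe sets. Members lower were 0 as reported, 1 at 1.5-fold (both by probe set and by gene) and 2 with SSX2IP and CTAGE. Over all probe sets 734 were higher and 1148 lower as reported, 444 and 758 with the floor at the 75th percentile, 2060 and 3069 at 1.5-fold and 320 and 373 at 3-fold.

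Probe sets under the floor, among them all of MAGEB and MAGEC, could not show a lower level. A value without replicates cannot separate the difference between lines from that between 2 cultures or arrays.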

Other observations

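Other X-linked germline families outside the rule, looked at after their values were seen, also differed from one another. VCX2, of the variable charge family of testis genes, was higher on both of its probe sets, with 1729 and 1604 in C4-2B-MDVR, against 152 and 176 in C4-2B (log2 differences 3.50 and 3.19). NXF2 and its copy NXF2B, testis relatives of an mRNA export factor, were lower on all 3 of their probe sets, with 191, 168 and 145 in C4-2B-MDVR, against 479, 370 and 358 in C4-2B (−1.32, −1.13 and −1.31). CSAG2 and CSAG3, which lie in the MAGEA cluster, had 998 in C4-2B-MDVR and 800 in C4-2B (0.32). The CT45A copies had 642 and 505 in C4-2B-MDVR, against 689 and 446 in C4-2B (−0.10 and 0.18). The VCX2 and 2 of the 3 NXF2 probe sets carry the _x_at mark.

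The 2 rows that pair MAGEA5P with an unnamed locus had 498 and 27.2 in C4-2B-MDVR, against 740 and 27.0 in C4-2B, and the brighter of them differed by −0.57.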
